A study of Mus musculus with 2 samples.

Results

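The interleukin-12 family is built from 5 subunit genes, Il12a, Il12b, Il23a, Il27 and Ebi3, and their RNA was followed here in mouse bone marrow-derived dendritic cells. The members were taken by gene symbol: every probe set whose platform annotation gave exactly 1 symbol, and that symbol a subunit, was used. This gave 6 probe sets for the 5 genes, 2 of them for Ebi3, out of 22180 genes with such a probe set. No probe set with several symbols named a subunit. The control was a culture of these cells, called GMDC by the submitters. The other was given conditioned medium of E0771 cells, a line of mouse mammary tumour cells, that had been exposed to the topoisomerase I inhibitor topotecan. The sources used here do not give the mouse strain, sex and age, the length of culture, the topotecan dose or the medium of the control, so the effect of topotecan and that of tumour-cell medium as such cannot be told apart. Each condition had 1 array, so no difference below has a replicate error, a p-value or a test.

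Members of this family are secreted as pairs of a helical cytokine chain and a chain that resembles a soluble receptor. Il12a (the p35 chain), Il23a (p19) and Il27 (p28) encode helical chains, and Il12b (p40) and Ebi3 encode the receptor-like chains. Il12a pairs with Il12b in IL-12, Il23a with Il12b in IL-23, Il27 with Ebi3 in IL-27, and Il12a with Ebi3 in IL-35. Dendritic cells make IL-12, IL-23 and IL-27 after sensing microbes or danger. IL-12 drives interferon gamma production by T and NK cells, IL-23 sustains cells that make interleukin-17, and IL-27 has both stimulating and restraining effects on T cells. The arrays measure RNA of each chain and not the paired proteins.

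Promoter sequences of 3 subunit genes, Ebi3, Il12b and Il12a, were in the RefSeq promoter table of build GRCm38.p6. These are all the subunit genes that the table held. Il27, which differed most between the arrays, and Il23a were not in it, so their promoters were not searched. Of the genes shown, Ebi3 was higher with conditioned medium, Il12b less so, and Il12a was level. Each run is the 250 bases before an annotated start, on the plus strand, and capitals mark a match to a motif searched on both strands. Il12a had 2 annotated starts and the upstream of these is printed.

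Ebi3, chr17:55952373-55952622: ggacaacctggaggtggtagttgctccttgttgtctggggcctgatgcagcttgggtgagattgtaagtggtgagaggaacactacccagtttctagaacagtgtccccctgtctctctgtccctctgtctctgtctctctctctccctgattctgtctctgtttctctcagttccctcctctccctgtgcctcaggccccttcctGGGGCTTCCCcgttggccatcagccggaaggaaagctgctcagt
Il12b, chr11:44399813-44400062: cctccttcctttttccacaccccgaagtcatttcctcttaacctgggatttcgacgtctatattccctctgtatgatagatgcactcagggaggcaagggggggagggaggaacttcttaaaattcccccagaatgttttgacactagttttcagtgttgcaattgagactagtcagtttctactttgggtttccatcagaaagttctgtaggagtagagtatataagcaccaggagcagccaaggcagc
Il12a, chr3:68690394-68690643: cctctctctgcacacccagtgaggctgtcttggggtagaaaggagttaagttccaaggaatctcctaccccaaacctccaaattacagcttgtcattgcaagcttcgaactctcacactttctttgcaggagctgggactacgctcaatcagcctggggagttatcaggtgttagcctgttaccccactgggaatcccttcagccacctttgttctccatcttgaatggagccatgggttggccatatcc

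The capitals in Ebi3 are 1 match to the kB consensus, the motif of NF-kB proteins, from 44 to 35 bases before the start. That consensus was found in 3.90% of the 32851 promoter windows of this length in the table. The other motifs searched were TATAAA (the TATA box, in 12.4% of windows), AANNGAAA (the core read by IRF proteins, 21.3%), TGANTCA (AP-1, 6.75%), TTCNNNGAA (the STAT gamma-activated site, 7.02%) and TTGCNNAA (C/EBP, 9.56%). None of these 5 occurred in the Ebi3 window, and no motif of the 6 occurred in the Il12b window or in either Il12a window. The windows were 56% (Ebi3), 46% (Il12b), 50.8% and 58.4% (both Il12a starts) G and C. A match is a run of letters and was not tested as a binding site. Only full matches to a pattern were counted, so a window without a match may still hold a site that departs from it.

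Conditioned medium went with higher values of 3 of the 5 subunit genes by 2-fold or more (Il27, Ebi3 and Il23a), no gene was lower by as much (0 of 5), and Il12b and Il12a lay between. Among all 13712 genes above a filter on low values, 8.63% were higher by this rule and 6.84% were lower. The filter kept a gene when the higher of its log2 intensities reached 4.10, the median of all values, and all 5 subunits passed it. Their median log2 difference, conditioned medium minus control, was 1.75, against -0.07 over all kept genes. That median is the value of Il23a, and with values under the filter level raised to it the median was 1.25. The differences ran from -0.01 for Il12a to 4.94 for Il27.

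**Figure D1:**
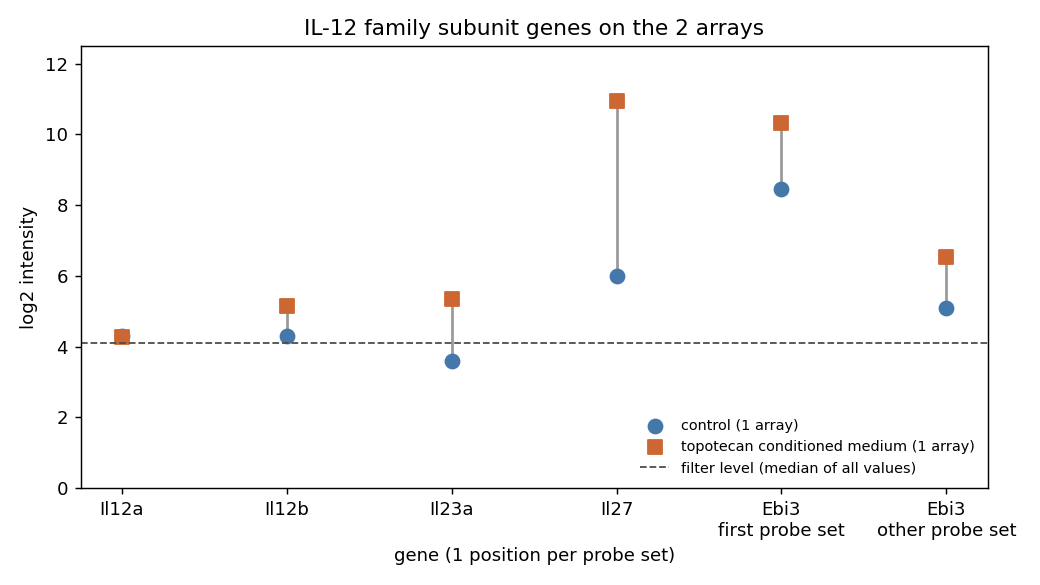
Log2 intensity of each probe set of the 5 subunit genes (vertical axis) on the control array (circles) and the topotecan conditioned-medium array (squares), with the filter level of 4.10 as a dashed line. Il27 shows the widest gap, from 6.01 to 10.94, the markers of Il12a (4.29 and 4.28) overlap, and heights are to be compared within a probe set only.

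Il27, the helical chain of IL-27, had a log2 intensity of 6.01 in the control and 10.94 with conditioned medium. The conditioned-medium value was 30.6-fold higher, and only 32 kept genes had a larger difference (0.233%). Both values lay above the filter level, the control by 1.91, so this fold does not rest on a value near background.

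Ebi3, the partner of Il27 in IL-27 and of Il12a in IL-35, had a log2 intensity of 8.45 in the control and 10.32 with conditioned medium on the probe set that stood for the gene. The value with conditioned medium was 3.67-fold higher, and 430 kept genes (3.14%) had a larger difference. Its other probe set read 5.08 in the control and 6.52 with conditioned medium, 2.71-fold higher. Both Ebi3 probe sets were thus past 2-fold in the same direction, with log2 differences of 1.88 and 1.44. Their gap was 0.44. For scale, the pooled SD of a probe set's difference around the mean of its gene was 0.46, taken over 652 genes with 2 or more kept probe sets. A gap between 2 probe sets is expected to be wider than such an SD, so the Ebi3 gap was not unusual. Both were read from 1 pair of arrays, so neither holds any variation between cultures.

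Il23a, the chain that is particular to IL-23, read 3.60 in the control and 5.35 with conditioned medium. The values were 3.37-fold apart as deposited, with 493 kept genes (3.60%) differing by more. The control value stood at -0.50 relative to the filter level, where signal is hard to tell from background. Measured against that level instead, Il23a was 2.38-fold higher (log2 difference 1.25). Raising the control value could not turn the sign, so the second reading bears on size only. The difference was smaller in it and still past 2-fold.

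Il12b encodes the chain shared by IL-12 and IL-23, and is commonly used as a sign of dendritic cell activation. It read 4.31 in the control and 5.15 with conditioned medium, 1.80-fold higher, and 1492 kept genes (10.9%) had a larger difference. The control value was 0.21 above the filter level and the other value 1.05 above it. Il12b was thus low on both arrays and its difference, 0.84 on the log2 scale, lay under the 2-fold rule.

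Il12a, the helical chain of IL-12 and IL-35, read 4.29 in the control and 4.28 with conditioned medium (log2 difference -0.01), and the sign turned with centring on kept genes (0.06) or a lowess curve subtracted (0.02). Both values stood within 0.20 of the filter level (0.19 and 0.18 above it). A gene with so little signal could differ without this being seen, so the level values do not show equal expression.

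**Figure D2:**
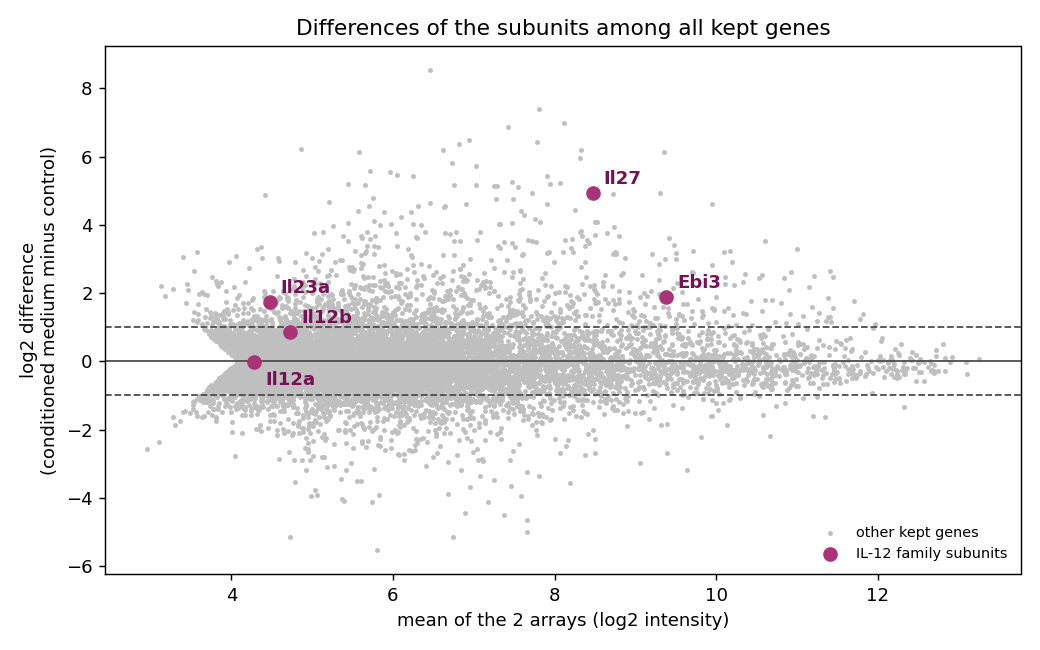
Log2 difference (conditioned medium minus control, vertical axis) against the mean of the 2 arrays (log2 intensity, horizontal axis) for the 13712 kept genes, in grey, with the 5 subunit genes named and dashed lines at 2-fold. Il27 (4.94) lies near the upper edge of the cloud, Ebi3 (1.88) and Il23a (1.75) above the upper line, and Il12b (0.84) and Il12a (-0.01) between the lines.

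Read by cytokine, both chains of IL-27 were past 2-fold, and their log2 differences were 3.06 apart (Il27 4.94, Ebi3 1.88). For IL-23 the helical chain Il23a (1.75) was past 2-fold and the shared chain Il12b (0.84) was not, a gap of 0.91. For IL-12 neither chain was past 2-fold, and Il12b lay 0.86 above Il12a. For IL-35 only the Ebi3 chain was. With 1 array per condition, whether the subunits differ from each other was not tested. In RNA of whole cultures, more cells that express a gene and more RNA per cell cannot be told apart.

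The chains of the receptors through which these cytokines act were measured in the same cells. Of 5, 4 were kept, and their median log2 difference was 0.94, with 1 past 2-fold upward and 0 downward. Il12rb1, the chain shared by the IL-12 and IL-23 receptors, read 4.60 in the control and 6.22 with conditioned medium, 3.07-fold higher. Il6st, which encodes gp130 and serves the IL-27 receptor and many others, was just under the size rule (4.53 and 5.52, 1.99-fold higher), and 2 receptor chains in place of 1 were past it with the arrays centred on kept genes or a lowess curve subtracted. Il12rb2, the second chain of the IL-12 receptor, read 3.89 and 4.78, 1.86-fold higher as deposited and 1.60-fold against the filter level. Il27ra, the chain particular to the IL-27 receptor, read 4.60 and 4.35, a log2 difference of -0.25. The IL-23 receptor gene Il23r lay under the filter level on both arrays (2.35 and 3.42). The receptor chain whose values were furthest apart was therefore Il12rb1, and the chain specific to IL-27 was not among the higher ones.

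Janus kinases and STAT proteins carry the signal from these receptors. Of 5 genes measured, 1 was past 2-fold upward and 0 downward, and the median log2 difference was 0.67. Stat3, used by IL-23 and IL-27, read 5.58 in the control and 6.64 with conditioned medium (2.09-fold higher). The kinase genes differed less: Jak2 by 0.75 (6.41 and 7.16), Tyk2 by 0.67 (5.39 and 6.06) and Jak1 by 0.36 (6.91 and 7.27). Stat4, the main STAT of IL-12 signalling, went the other way, at 5.38 and 4.44, a log2 difference of -0.94.

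Receptors and adaptors known to switch on subunit transcription had upward differences past 2-fold in 6 of 13 genes, downward ones in 0 and smaller ones in 7, and the median log2 difference was 0.98. Cd40, the receptor through which T cells license dendritic cells to make IL-12, read 5.77 in the control and 9.87 with conditioned medium, 17.1-fold higher. Tlr3, a sensor of double-stranded RNA, was 6.27-fold higher as deposited and 4.91-fold against the filter level (3.75 and 6.39). Myd88, the adaptor of most Toll-like receptors, was 3.68-fold higher (6.97 and 8.85). Tlr2 (2.22-fold), the interferon receptor chain Ifnar2 (2.15-fold) and the endotoxin receptor Tlr4 (2.06-fold) were just past the size rule. Ifngr2, a chain of the interferon gamma receptor, was nearest to level, with a log2 difference of 0.15, and Ticam1 (-0.55) and Tlr7 (-0.44) were the genes below 0.

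Transcription factors known to act on subunit genes were split. Of 13 measured, 6 were past 2-fold upward, 1 downward and 6 in neither direction, and their median was 0.25. Irf7 and Irf1, interferon regulatory factors, were 10.7-fold (7.78 and 11.19) and 4.37-fold higher (6.53 and 8.66). IRF1 is known to act on Il12a and Il27. The NF-kB subunit genes Rel (4.72 and 6.77, 4.15-fold) and Rela (5.25 and 6.95, 3.23-fold) were higher, as was Nfkbiz, a nuclear NF-kB cofactor (4.62 and 6.44, 3.52-fold). The AP-1 gene Fos was 3.18-fold higher as deposited, but its control value of 2.75 lay under the filter level and the fold against it was 1.25. Batf3, needed for the dendritic cells that are strong IL-12 producers, was 4.08-fold lower (7.30 and 5.27). Irf8, another factor of IL-12 production, had log2 differences of -0.88 and -0.23 on its 2 probe sets, and Cebpb was nearest to level (0.09). Nfkb1 and Irf5 were not analysed here.

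Genes known to restrain subunit transcription or RNA had upward differences past 2-fold in 6 of 12 genes and downward ones in 0, and all 12 differences were above 0, with a median of 0.97. Il10, the gene of interleukin-10, which inhibits IL-12 production, read 5.39 in the control and 9.79 with conditioned medium, 21.0-fold higher, and its receptor chain Il10ra was 4.03-fold higher (5.21 and 7.22). Il10rb, the other chain, was level, with a log2 difference of 0.03. Socs1, a feedback inhibitor of JAK signalling, was 16.4-fold higher (5.45 and 9.49). Socs3, a related inhibitor, was 3.52-fold higher (6.87 and 8.68), with a log2 difference of 0.94 on its other probe set. Nfil3, known as a repressor of Il12b, was 2.97-fold (6.29 and 7.86) and Zfp36, which destabilises cytokine RNAs, 2.34-fold higher (7.17 and 8.40).

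**Figure D3:**
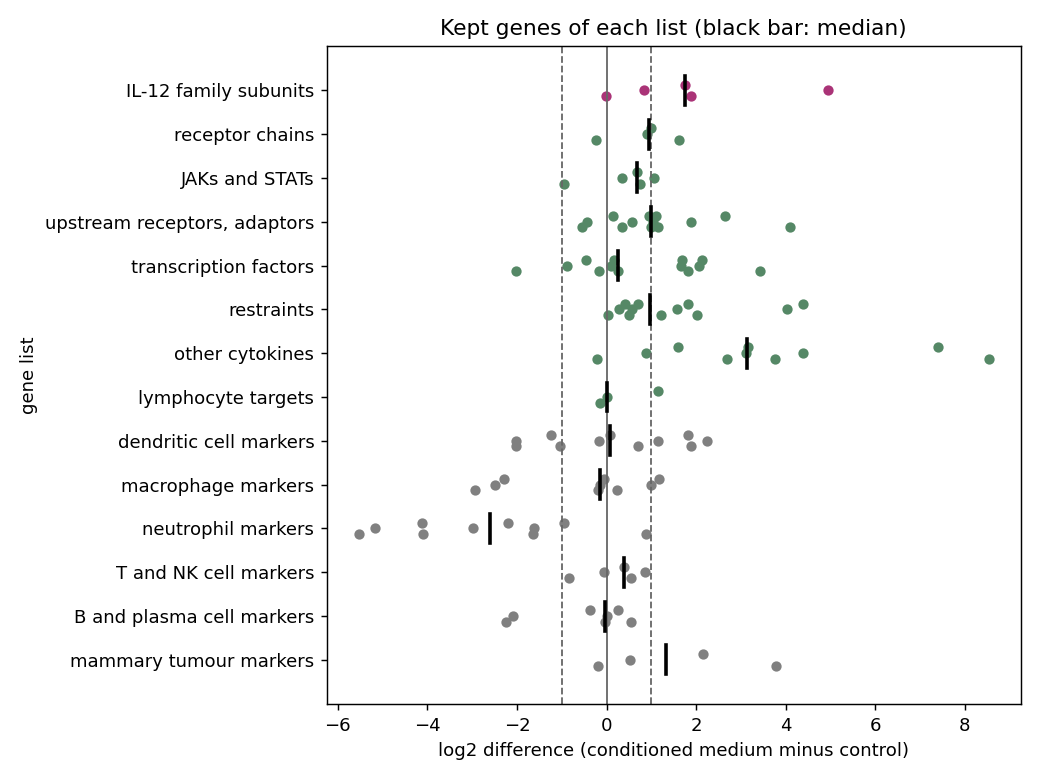
Log2 difference (conditioned medium minus control, horizontal axis) of each kept gene in 14 lists (vertical axis), with the list median as a black bar and dashed lines at 2-fold. The subunit median (1.75) lies below that of the other cytokines of activated dendritic cells (3.13). It lies above those of the mammary tumour markers (1.33) and the receptor chains (0.94), and the neutrophil markers lie lowest (-2.60). These medians are of values as deposited, and with low values raised to the filter level the subunit median was 1.25.

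Other cytokines of activated dendritic cells were set beside the subunits. Upward differences past 2-fold were seen in 8 of 10 and downward ones in 0, and the median was 3.13. Il6, whose product is structurally related to the helical chains of this family, read 4.11 in the control and 11.51 with conditioned medium. Ifnb1, the interferon beta gene, read 2.19 and 10.73, so its control value lay under the filter level, and it was 99.0-fold higher against that level. Il10 had a log2 difference of 4.40, beside 4.94 for Il27. Il1a was 13.6-fold, Il1b 8.88-fold, Osm 8.61-fold, Tnf 6.46-fold and Il18 3.04-fold higher. Lif (0.89) and Il15, which was nearest to level (-0.21), were not past 2-fold. Whether the subunits differ from these cytokines was not tested.

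Lymphocyte genes that the family acts on had little signal in these cultures. Of 7 measured, 4 lay under the filter level on both arrays: Ifng (2.87 and 3.10), Il17a (3.49 and 2.93), Il22 (1.72 and 1.53) and Il21 (3.12 and 3.08). Il17f read 3.19 and 4.35, 2.23-fold higher as deposited and 1.19-fold against the filter level. Tbx21, the factor of type 1 helper T cells, read 4.40 on both arrays, and Foxp3, the factor of regulatory T cells, 5.19 and 5.04. No lymphocyte gene of this list was thus past 2-fold with both values above the filter level.

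As a pattern over 2 arrays is 1 difference, the genes most like each subunit were those with the nearest log2 difference. For Il27 these were Sdcbp2 (5.25 and 10.19) and Ch25h (6.83 and 11.77), with gaps of 0.00194 and 0.00245, and 4 named genes lay within 0.1 of it. For Ebi3 they were Wars (1.88) and Akr1c18 (1.88) among 83 such genes, and for Il23a Dpy19l1 (1.75) and Selenow (1.75) among 89. Stk17b and Gpbp1l1 (0.84 each) were nearest to Il12b among 375, and Sh2b3 and Atf2 (-0.01 each) to Il12a among 1634. These counts follow from the size of each difference, because few kept genes differ as much as Il27 and many lie near the level of Il12a. They add nothing about the subunits beyond those differences.

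The 5 subunit genes lie on 5 chromosomes, so their nearest protein-coding neighbours in the RefSeq gene order are different genes. Next to Il23a lie Stat2, which mediates interferon signalling (5.19 in the control and 7.37 with conditioned medium, 4.54-fold higher), and, beyond it, Apof (4.54 and 7.83, 9.83-fold). On its other side Pan2 (-0.30) and Cnpy2 (0.49) were between. Next to Il27 lies Nupr1, a stress-response gene (8.88 and 11.35, 5.54-fold higher), with Sgf29 (-0.66) beyond it and Apobr (0.74) and Cln3 (0.68) on the other side. None of the measured pair on each side of Il12b, Il12a and Ebi3 was past 2-fold. Their log2 differences ran from -0.79 (Zfp959, near Ebi3) to 0.59 (Zfp119b, also near Ebi3), and near Il12a the genes Schip1 and Iqcj were not analysed here.

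Markers of the labelled and of other cell types differed between the arrays, and their part in the subunit differences was not tested. Counts past 2-fold cover kept markers, while summed signals cover all measured markers, also those under the filter level. Dendritic cell markers were split, with 4 of 11 kept at least 2-fold higher and 4 lower, and a summed signal of 11.28 in the control and 12.29 with conditioned medium (log2). The class II genes H2-Aa (9.06 and 10.94) and H2-Ab1 (10.16 and 11.31) carried the higher sum, and without them the sums were 9.66 and 9.05. Dpp4 (2.25) was highest and Batf3 (-2.03) lowest, Itgax (CD11c) read 8.18 and 7.15, and Zbtb46, a defining gene of conventional dendritic cells, lay under the filter level on both arrays (3.65 each). Flt3, among the 4 lower, read 4.38 and 3.15 (log2 difference -1.23, or -0.28 against the filter level). With low values raised to that level, 4 dendritic cell markers were higher and 3 lower. Of macrophage markers, 1 of 9 was higher and 3 lower, with sums of 14.20 and 14.45, from Ly6c2 (1.18) to Csf1r (-2.93). Lyz2 (12.71 and 12.53), Cd68 (12.13 and 12.37) and Fcgr1 (11.45 and 12.44) carried most of these sums. Besides Csf1r, the lower markers were Ccr2 (-2.48) and Adgre1 (-2.29). Neutrophil markers had 0 of 10 higher and 8 lower, with sums of 13.33 and 11.29, from Csf3r (0.89) to Camp (-5.54, or -4.47 against the filter level). B and plasma cells are a known source of Ebi3: 2 of 7 kept markers were lower and 0 higher, with sums of 10.74 and 10.54 and Cd79a under the filter level on both arrays, from Ms4a1 (0.54) to Cd79b (-2.24). Sdc1 alone (10.40 and 10.36) carried most of both sums, so their near-level values say little about the other markers. T and NK cell markers had 0 of 5 kept past 2-fold, with sums of 7.75 and 7.60. Their differences ran from Cd4 (0.87, or 0.09 against the filter level) to Nkg7 (-0.84). Cd8a, Cd8b1, Ncr1 and Klrb1c lay under the filter level on both arrays. Of mammary tumour markers, 5 of 9 lay under the filter level on both arrays, Epcam among them (2.67 and 3.24), and 2 of 4 kept were higher, with sums of 7.78 and 10.44, or 7.08 and 7.70 without Cdh1. Cdh1 alone made up 85.1% of the summed signal with conditioned medium. It (3.79, and 0.55 on its other probe set) was the highest of these and Krt8 (-0.19) the lowest. The other higher marker was Krt19 (4.44 and 6.59, log2 difference 2.15), with both values above the filter level.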

How the data were processed

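The deposited values, 1 for each probe set on each array, were read as log2 intensity because of their range (-0.26 to 13.42 in the control and 0.02 to 13.50 with conditioned medium), and the log base is an inference. Biotin-labelled cRNA was made from Trizol-extracted RNA, per the labels' protocols. Affymetrix Expression Console is named in the submitters' processing notes; the sources used here give no version, normalization or genome build. Sorted values of the arrays differed by at most 0.28, so a shift of most genes together would not be seen. Of 41345 probe sets, 23521 had 1 symbol, and all 5 subunits matched RefSeq by gene ID and symbol.

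The probe set with the highest mean stood for a gene. Genes were kept at a highest value of at least 4.10, the median of both arrays (13712 of 22180). With 1 array per condition no test was possible, so genes were counted past 2-fold. A fold against the filter level raises lower values to it. The number of arrays limits the precision, and no detection calls were used.

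Named were all subunits, all members of the receptor, signalling and lymphocyte lists, members of the 4 regulator and cytokine lists past 2-fold with the one nearest 0, the highest and lowest kept marker of each cell type, and the 2 kept genes nearest each subunit. Irf8, Ticam1, Tlr7, Lif, Itgax, H2-Aa, H2-Ab1, the markers named as under the filter level and the neighbouring genes were added after seeing their values. So were Sdc1, Lyz2, Cd68, Fcgr1, Adgre1, Ccr2, Flt3 and Krt19. Members, lists and motifs were chosen with earlier results of these data known. Alternatives were quantile normalization, a subtracted lowess curve (fraction 0.3, 3 iterations), centring on kept genes, the mean of probe sets, 3 other filters, raised low values, and 1.5-fold and 3-fold rules. The counting was tested on simulated data. Python 3.11.15, numpy 2.4.6, pandas 2.3.3, statsmodels 0.14.6 and matplotlib 3.10.9 were used.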

Additional observations from a re-analysis of the deposited data

How the results depend on the processing

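Il27, Ebi3 and Il23a stayed at least 2-fold higher under quantile normalization, the lowess curve, centring, the mean of probe sets and raised low values, with log2 differences of 4.94 to 5.06, 1.66 to 2.02 and 1.25 to 1.82. By construction, among the subunits the mean of probe sets could change only Ebi3, and raised low values only Il23a. Centring took the same -0.07 off every gene. Sorted values of the arrays differed by at most 0.28, so quantile normalization could change little. These settings are thus not separate checks, and all use 1 pair of arrays. Il12b ranged from 0.84 to 0.92 and Il12a from -0.01 to 0.06, so Il12a had no fixed sign. Il23a moved by more than the pooled SD of 0.46 within genes only with low values raised to the filter level (1.25), which by construction takes off the part of its difference under that level. The count of subunits past the size rule was 4 at 1.5-fold, where Il12b joined, 3 at 3-fold and 2 with a filter at the 75th percentile, which by construction drops Il23a. Over all kept genes, 2274 were higher and 2458 lower at 1.5-fold, and 568 and 290 at 3-fold, against 1184 and 938. Of 260 counts over the other lists, 238 stayed within 1.5 times and 22 did not, among them the receptor chains (2 in place of 1 with centring, the lowess curve or no filter). No paired analysis was possible because each condition has 1 array. Intensity near the filter level limits Il12a, Il12b and Il23a, and the number of arrays limits every value.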
